A study of Mus musculus with 7 samples.

Results

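The mitotic apparatus genes described here are 50 genes whose products drive entry into mitosis, build the spindle and kinetochores, separate sister chromatids and divide the cell. They were taken from a fixed list of symbols, chosen with earlier results of these data known. A gene was measured where a probe set of the array was annotated to its symbol alone. Each gene is read from the brightest such probe set, the one with the highest mean over all arrays. This gave 48 measured members of 12393 genes on the array, while Ccnb1 and Espl1 had no such probe set. All values are intensities of Affymetrix arrays in cultured mouse primary keratinocytes, which are epidermal epithelial cells. RNA was taken 48 h after transient transfection with small interfering RNA (siRNA), and the series compares cells given Trp63-specific siRNA (5 arrays, replicates 1, 2, 3, 4 and 7, called silenced here) with cells given a non-specific siRNA (2 arrays, replicates 5 and 6, called controls). Strain, age and the origin of the cells are not given in the sources used here, nor whether each array stands for its own culture. The spread behind each p-value is therefore that among these arrays and may be technical.

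Cells enter mitosis when the kinase CDK1, bound to a cyclin, is switched on by CDC25 phosphatases and supported by Polo-like kinase 1. The spindle assembly checkpoint then holds back the anaphase-promoting complex until every kinetochore is attached to microtubules, after which securin and cyclin B are destroyed, sister chromatids part and the central spindle directs cytokinesis. Most of these genes are transcribed mainly in the G2 and M phases, and in the epidermis dividing cells lie chiefly in the basal layer, where the transcription factor p63, the product of Trp63, is abundant. Many promoters of such genes carry CCAAT boxes, bound by the factor NF-Y, and a cell cycle genes homology region (CHR), bound by the LIN54 subunit of the DREAM and MMB complexes.

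RefSeq promoters (GRCm38.p6, 250 bases before to 50 after each start) were found for 39 of the 48 members, which have 42 promoters. Ccna2, Cdc25c, Foxm1, Aurkb, Incenp, Tpx2, Stmn1, Kif20a and Smc4 were not matched. A CCAAT box, searched as CCAAT on both strands, was in 34 of the 42 (81%), against 37.4% of all 32851 promoters and 37.1% of those of genes on the array. A CHR, searched as TTTGAA or TTCGAA on both strands, was in 32 of the 42 (76.2%), against 19.2% of all promoters and 14.6% of those of genes on the array. Both motifs together were in 30 of the 42 (71.4%), against 7.52% of all promoters and 5.76% of the promoters of genes on the array. An E2F core, searched as TTGGCGC or TTCCCGC on both strands, was in 7 (16.7%), against 6.81% of all promoters and 10.5% of those of genes on the array. Of the 13 matched members that fell with Trp63 siRNA, 11 had a CCAAT box and 10 a CHR, and of the 26 other matched members 20 and 19 did. A match describes letters in the window and no binding was measured.

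The 120 bases before the start are shown for 3 members that fell (Ccnb2, Cdc20 and Bub3), for 2 that did not pass the test (Cdk1 and Kif11) and for Ncaph, the member whose level was not below the controls. They lie at chr9:70421555-70421674 (minus strand), chr4:118437344-118437463 (minus strand), chr7:131560250-131560369 (plus strand), chr10:69352913-69353032 (minus strand), chr19:37376262-37376381 (plus strand) and chr2:127133955-127134074 (minus strand) for the genes in that order. Each runs 5′ to 3′ along its gene, and capitals mark CCAAT boxes and CHR matches on either strand (ATTGG and TTCAAA are the other strand of CCAAT and TTTGAA).
Ccnb2: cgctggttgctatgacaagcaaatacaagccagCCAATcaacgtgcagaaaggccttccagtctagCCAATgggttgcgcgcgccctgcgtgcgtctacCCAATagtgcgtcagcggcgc
Cdc20: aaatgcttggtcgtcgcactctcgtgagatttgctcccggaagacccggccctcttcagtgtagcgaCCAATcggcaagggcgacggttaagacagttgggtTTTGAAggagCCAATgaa
Bub3: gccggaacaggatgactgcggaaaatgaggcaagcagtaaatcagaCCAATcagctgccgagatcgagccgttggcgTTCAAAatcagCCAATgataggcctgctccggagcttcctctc
Cdk1: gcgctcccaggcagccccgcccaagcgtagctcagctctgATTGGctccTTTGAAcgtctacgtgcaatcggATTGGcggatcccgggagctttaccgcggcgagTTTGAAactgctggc
Kif11: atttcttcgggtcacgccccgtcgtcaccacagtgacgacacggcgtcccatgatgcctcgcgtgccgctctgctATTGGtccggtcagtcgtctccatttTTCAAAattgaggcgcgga
Ncaph: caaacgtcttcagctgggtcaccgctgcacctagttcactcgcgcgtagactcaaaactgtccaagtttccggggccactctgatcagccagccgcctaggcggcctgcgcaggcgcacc
Ccnb2 has 3 CCAAT boxes that begin 87, 54 and 21 bases upstream, 33 bases apart, and its CHR matches lie outside the stretch shown. In Cdc20 the CCAAT boxes begin 53 and 8 bases upstream, and 18 bases upstream, between them, stands a CHR. In Bub3, shown at the upstream of its 2 starts, a CHR at 43 bases stands between CCAAT boxes at 74 and 32. Cdk1, which did not pass the test, has the same letters, with CCAAT boxes at 80 and 48 bases and CHR matches at 71 and 15. Kif11 has a CCAAT box at 45 and a CHR at 19. The Ncaph stretch holds neither motif. This does not set Ncaph apart from the members that fell. Neither motif was found in the promoter windows of Tacc3 and Pttg1, which fell, while Cks1b (log2 difference -0.01) has both.

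Median probe set intensity was 207 to 214 on the 7 arrays, and the number of arrays limits the precision of every value. The labels were borne out by Trp63 itself, which read 503 ± 31.1 (SD, n = 5) with Trp63 siRNA and 1565 ± 167 (SD, n = 2) with control siRNA. Of 11 measured keratinocyte markers, which were bright (summed intensity 41770 to 45820 silenced and 58062 to 59857 in the controls), 10 were lower and Cdh1 was higher with Trp63 siRNA. The 8 melanocyte markers summed to 6856 to 12003 silenced and 6691 to 10079 in the controls, with high sums in silenced replicates 1 and 2 and control 5, and none passed the test. Fibroblast (10 measured), immune (8) and endothelial, blood and muscle markers (7) summed to at most 2007, 1650 and 1448 on any array, and of these 25 genes Col1a1, Cd68 and Acta1 were higher and Tyrobp lower. Bacterial spike transcripts had a mean log2 intensity of 8.97 to 9.05 in silenced replicates 2, 3 and 7 and of 8.73 to 8.78 on the other arrays, controls included. The ratio of 3′ to 5′ probe sets, a measure of RNA integrity, was 1.14 to 1.25 for Actb in the silenced arrays and 1.30 to 1.36 in the controls, and 0.905 to 0.938 against 0.980 to 0.983 for Gapdh. The part of the cell mixture, the spikes and this ratio in the results was not tested beyond the fits given below.

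Genes of the mitotic apparatus were lower after Trp63 silencing, by modest amounts. Of the 48 members 17 (35.4%) fell and none rose at a limma adjusted p under 0.05, adjusted over all 22626 probe sets, against 8.57% of all genes lower and 8.03% higher. At an unadjusted p under 0.05, 37 members were lower and none higher, against 19% of all genes lower and 12.7% higher. The fall of the 17 was 1.20- to 1.68-fold on the log2(intensity + 16) scale. The median difference over the 48 was -0.38 on that log2 scale, against -0.04 over all genes, and 41 members (85.4%) lay below -0.2, against 14.0% of all genes. A difference below 0 was seen in 47 members, against 63.6% of all genes. In 38 members all 5 silenced values lay below both controls, which holds for 24% of all genes. The members were chosen with earlier results of these data known, so these shares only describe the list. In bulk RNA fewer dividing cells and less of these transcripts per cell cannot be told apart.

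**Figure D1:**
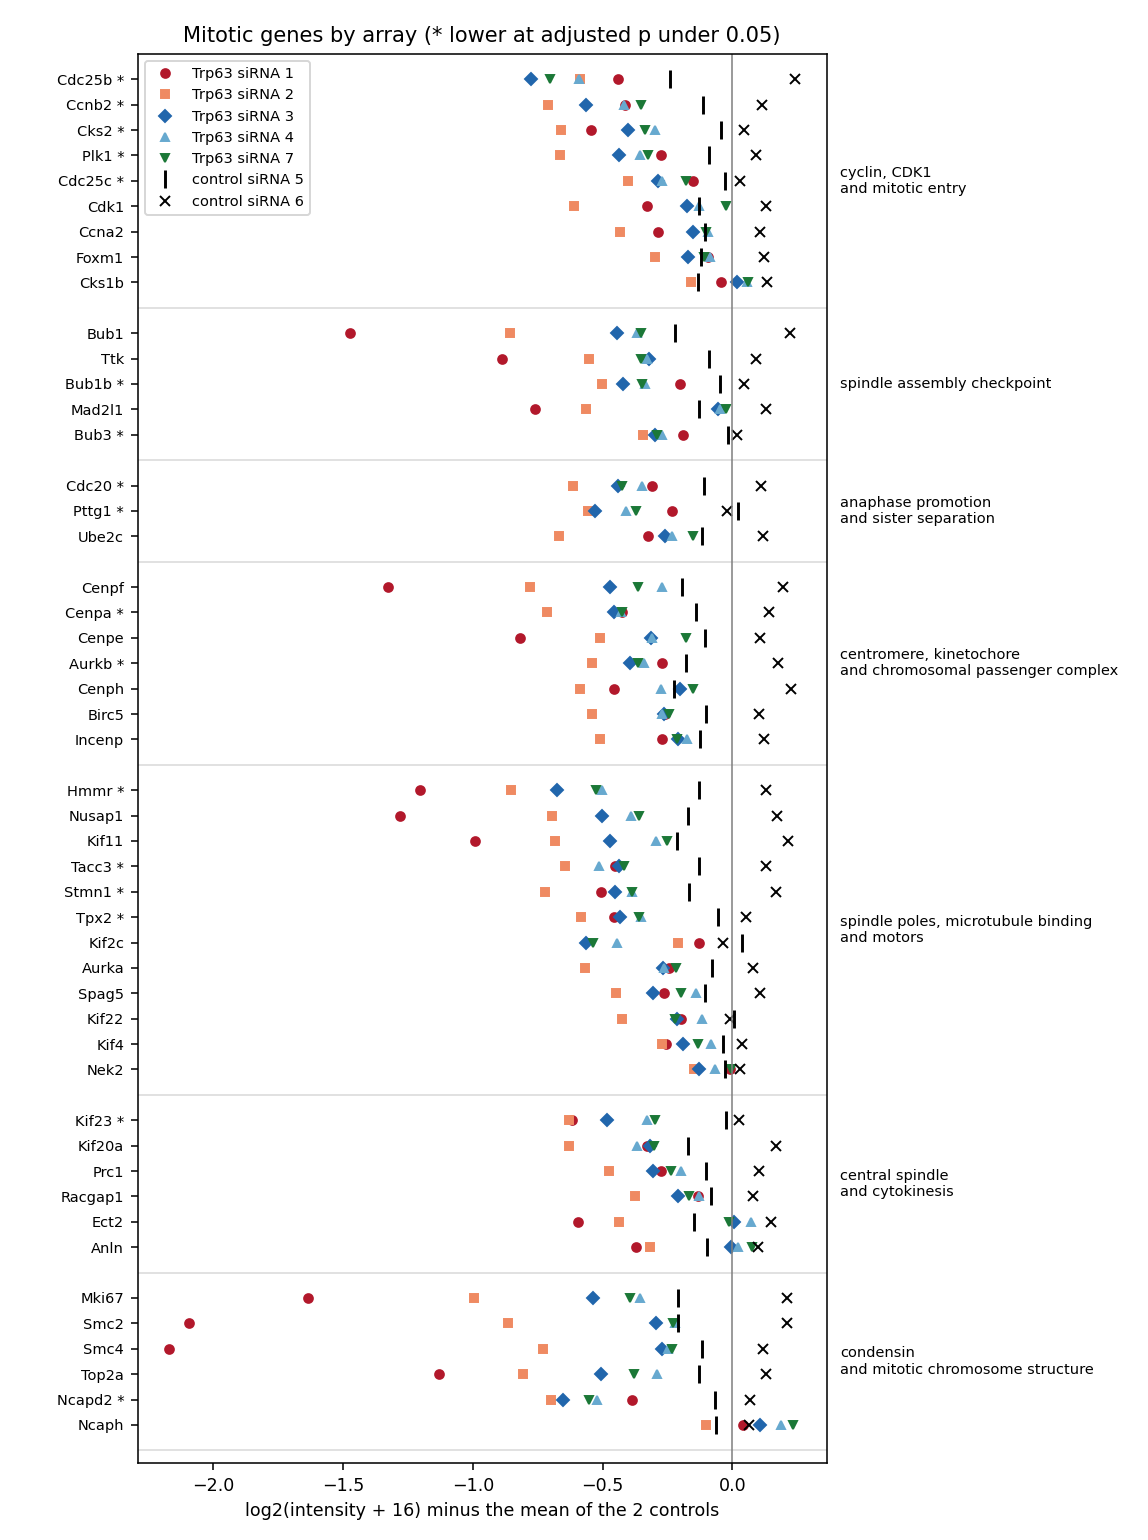
Level of each of the 48 members on every array, as log2(intensity + 16) minus the mean of the 2 controls (x axis), grouped by function; an asterisk marks the 17 members that fell. Points of the silenced arrays lie left of both controls for 38 members, and silenced replicate 1 lies far to the left for Smc2, Smc4 and Mki67.

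**Figure D2:**
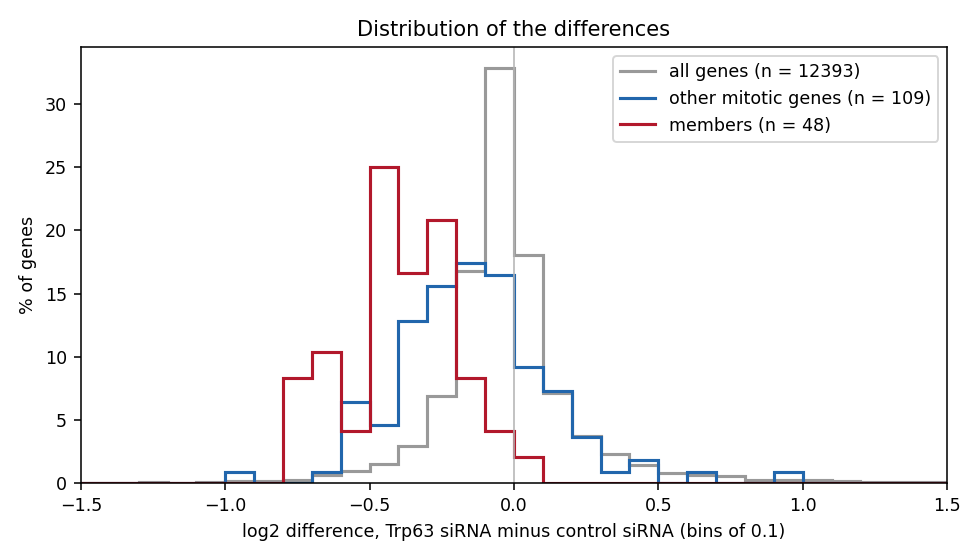
Distribution of the log2 difference, Trp63 siRNA minus control siRNA (x axis, bins of 0.1), as a share of genes (y axis) for 12393 genes, 109 other mitotic genes and 48 members. The members centre on -0.38, the other mitotic genes on -0.15 and all genes on -0.04.

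The number of calls rested on few arrays. Without control replicate 6 no member passed (limma, smallest adjusted p = 0.0516, 16 members lower at an unadjusted p under 0.05 against 14.9% of all genes), while 2.78% of all genes were still lower. Without control replicate 5, 10 members passed, of which 9 were among the 17, and 4.22% of all genes did. Without silenced replicate 1, 29 members passed, with 15.3% of all genes. With the melanocyte level of the arrays (high or low, as above) as a block in the fit 40 passed (13.6% of all genes), and with the spike level as a block only Tpx2, Tacc3 and Ncapd2 did (3.57% of all genes), with a members' median of -0.33. Both controls have the low spike level, as do silenced replicates 1 and 4, so that block compares 2 arrays with 2. The direction moved less: the median over the members stayed between -0.49 and -0.32 when any array was left out, and was -0.36 within the arrays with a high melanocyte level and -0.40 within the others.

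**Figure D3:**
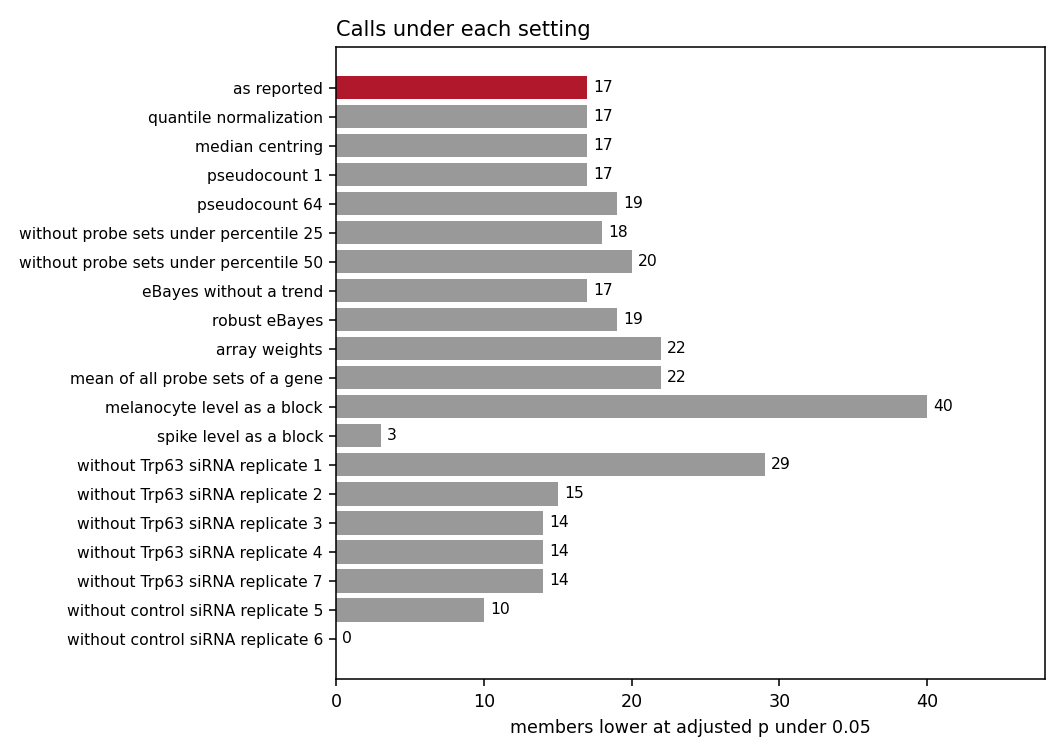
Number of members lower at a limma adjusted p under 0.05 (x axis) as reported and under each alternative setting (y axis). The count is 17 as reported, 40 with the melanocyte level as a block and 0 without control replicate 6.

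Group counts here and below stand beside a share of 8.57% of all genes lower. Genes of mitotic entry fell in 5 of 9 measured cases, with a median difference of -0.26. Array values follow for each in the order of replicates 1, 2, 3, 4 and 7, then controls 5 and 6. Ccnb2, a B-type cyclin that activates CDK1, read 754, 609.9, 677, 751 and 788 with Trp63 siRNA and 931 and 1094 with control siRNA. All 5 silenced values lay below both controls, and Ccnb2 fell 1.41-fold (log2 difference -0.49 with SE 0.11, limma adjusted p = 0.0158). Its partner kinase is bound by the small subunits Cks1b and Cks2. Cks2 read 1406, 1294, 1551, 1671 and 1627 with Trp63 siRNA and 1992 and 2124 with control siRNA. The groups did not overlap, and the fall was 1.36-fold (log2 difference -0.45 with SE 0.10, limma adjusted p = 0.0155). Cks1b read 2216, 2042, 2313, 2376 and 2384 with Trp63 siRNA and 2083 and 2505 with control siRNA. Its groups overlapped and it had the largest p of the group (log2 difference -0.01 with SE 0.09, limma adjusted p = 0.933), with a difference whose sign changed between settings. The other Cks1b probe set, also bright, was at -0.23 and did not pass (limma adjusted p = 0.127).

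Both members that encode phosphatases removing the inhibitory phosphates from CDK1 were lower. Cdc25b read 322, 289, 252, 288 and 266 with Trp63 siRNA and 372 and 527 with control siRNA. Every silenced array was below both controls, although the controls differed widely from each other, and Cdc25b fell 1.54-fold (log2 difference -0.62 with SE 0.13, limma adjusted p = 0.0124). Cdc25c was dim, under the median probe set of the array, and read 206, 171, 186, 188 and 202 with Trp63 siRNA and 226 and 235 with control siRNA. The silenced values were all lower, and the fall was 1.20-fold (log2 difference -0.26 with SE 0.07, limma adjusted p = 0.0407). Plk1, the Polo-like kinase that promotes mitotic entry and spindle assembly, read 619.8, 469, 553, 584 and 597 with Trp63 siRNA and 706 and 804 with control siRNA. It was lowest in silenced replicate 2, without overlap of the groups, and fell 1.33-fold (log2 difference -0.41 with SE 0.11, limma adjusted p = 0.034). Among the members that did not pass were Cdk1 itself (-0.25, adjusted p = 0.266), Ccna2 (-0.21, adjusted p = 0.214) and the transcription factor gene Foxm1 (-0.15, adjusted p = 0.249), each with a silenced array above control replicate 5. Foxm1 was dim at every probe set, and 2 of its other 3 probe sets passed at -0.30 and -0.26 (adjusted p = 0.0131 and 0.0147). The other Ccna2 probe set, also bright, was at -0.48 and did not pass (adjusted p = 0.0751).

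Checkpoint genes had a median difference of -0.36, and 2 of 5 fell. Bub3, which carries BUB1 and BUBR1 to kinetochores, read 2070.1, 1861, 1923, 1961 and 1933 with Trp63 siRNA and 2341 and 2394 with control siRNA. The arrays of each group were close together and the groups did not overlap, with a fall of 1.21-fold (log2 difference -0.28 with SE 0.06, limma adjusted p = 0.00962). Bub1b, the gene of the checkpoint protein BUBR1, read 369.9, 298, 316, 336 and 333 with Trp63 siRNA and 414 and 443 with control siRNA. It fell 1.29-fold, with all silenced values lower (log2 difference -0.36 with SE 0.09, limma adjusted p = 0.0201). Mad2l1, which sequesters CDC20, had the largest p and read 415, 477, 685, 689 and 702 with Trp63 siRNA and 650.4 and 782 with control siRNA. Silenced replicates 1 and 2 were below the controls while 3, 4 and 7 lay between them (log2 difference -0.29 with SE 0.21, limma adjusted p = 0.38). The kinase gene Bub1 read 168, 267, 360.2, 381 and 385 with Trp63 siRNA and 423 and 581 with control siRNA. Its silenced values were all below the controls but spread widely (log2 difference -0.70 with SE 0.29, limma adjusted p = 0.135). Ttk, the kinase that starts checkpoint signalling, did not pass either (-0.49, adjusted p = 0.0539).

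The genes that trigger anaphase were lower in 2 of 3 measured cases, with a median of -0.42. Cdc20, the activator of the anaphase-promoting complex, read 1484, 1199.9, 1355, 1444 and 1368 with Trp63 siRNA and 1707 and 1992 with control siRNA. The silenced arrays were all lower, and the fall was 1.35-fold (log2 difference -0.43 with SE 0.09, limma adjusted p = 0.0144). Pttg1 encodes securin, the inhibitor of separase. It read 1630.4, 1301, 1325, 1440.3 and 1482 with Trp63 siRNA and 1949 and 1894 with control siRNA. Here the controls were close together and every silenced array was lower, with a fall of 1.34-fold (log2 difference -0.42 with SE 0.09, limma adjusted p = 0.0124). Ube2c, the ubiquitin-conjugating enzyme of that complex, read 1550.0, 1217, 1625, 1655 and 1749 with Trp63 siRNA and 1791 and 2114 with control siRNA. Its groups did not overlap but the spread was larger and it did not pass (log2 difference -0.33 with SE 0.13, limma adjusted p = 0.127).

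At the centromere and kinetochore 2 of 7 members fell, with a median of -0.38. Cenpa, the histone H3 variant that marks centromeres, read 770.3, 628, 755, 769 and 771 with Trp63 siRNA and 944 and 1148 with control siRNA. Silenced replicate 2 was lowest and the groups did not overlap, with a fall of 1.40-fold (log2 difference -0.49 with SE 0.11, limma adjusted p = 0.014). Aurkb, the kinase of the chromosomal passenger complex, read 251, 205, 229, 238 and 234 with Trp63 siRNA and 269 and 348 with control siRNA. It fell 1.30-fold without overlap (log2 difference -0.38 with SE 0.10, limma adjusted p = 0.0347), and its other probe set also fell (-0.34, adjusted p = 0.0143). Cenph, a subunit of the inner kinetochore, had the largest p of the group and read 218, 198, 263, 249.8 and 273 with Trp63 siRNA and 259 and 359.6 with control siRNA. Silenced replicates 3 and 7 were above control 5 (log2 difference -0.33 with SE 0.14, limma adjusted p = 0.153). The other passenger subunits, survivin (Birc5, -0.32, adjusted p = 0.059) and Incenp (-0.28, adjusted p = 0.119), did not pass. Neither did the kinetochore motor Cenpe (-0.43, adjusted p = 0.0849) nor Cenpf (-0.64, adjusted p = 0.125), which reached the largest difference of the group with the widest spread. Dimmer probe sets of Incenp (-0.33, adjusted p = 0.0445) and Cenpf (-0.13, adjusted p = 0.0381) passed, and another of Incenp did not (-0.07).

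Of 12 genes for spindle poles, microtubule binding and motors 4 fell, and the median was -0.41. Tpx2, which activates Aurora A and nucleates microtubules near chromatin, read 421, 384, 428, 453 and 450.1 with Trp63 siRNA and 561 and 605 with control siRNA. All silenced arrays were well below both controls, and the fall was 1.35-fold (log2 difference -0.44 with SE 0.08, limma adjusted p = 0.00671). Tacc3, a stabiliser of kinetochore fibres, read 396, 344, 399.9, 379 and 406 with Trp63 siRNA and 499 and 600.4 with control siRNA. It fell 1.41-fold without overlap (log2 difference -0.49 with SE 0.09, limma adjusted p = 0.007). Hmmr, a spindle pole protein that also binds hyaluronan, had the largest fall of the 17 and read 247, 319, 363, 412 and 404 with Trp63 siRNA and 538 and 646 with control siRNA. It was lowest in silenced replicate 1, all silenced values were below both controls, and the fall was 1.68-fold (log2 difference -0.75 with SE 0.18, limma adjusted p = 0.0202). Stmn1, which destabilises microtubules, read 2068, 1778, 2143, 2245 and 2248 with Trp63 siRNA and 2619 and 3302 with control siRNA. Its fall was 1.40-fold, without overlap although the controls lay far apart (log2 difference -0.49 with SE 0.11, limma adjusted p = 0.0161).

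Members of this group that did not pass differed by between -0.65 (Nusap1) and -0.07 (Nek2). Nek2, a centrosome kinase, was dim and read 176, 159, 161, 169 and 177 with Trp63 siRNA and 174 and 182 with control siRNA. Its groups overlapped (log2 difference -0.07 with SE 0.06, limma adjusted p = 0.425). The kinesin genes Kif11 (-0.54, adjusted p = 0.0971), Kif2c (-0.38, adjusted p = 0.0709), Kif22 (-0.24, adjusted p = 0.0894) and Kif4 (-0.19, adjusted p = 0.113) were below both controls in every silenced array. So were Aurka, the spindle pole Aurora kinase (-0.31, adjusted p = 0.0761), Spag5 (-0.27, adjusted p = 0.0672) and Nusap1 (-0.65, adjusted p = 0.0897). Kif2c, which takes microtubules apart at centromeres, was unlike the others in that silenced replicates 3, 4 and 7 were lower (827, 899 and 843) than replicates 1 and 2 (1123 and 1060). Its probe sets disagreed, at 0.00, -0.22 (adjusted p = 0.0374) and 0.03 for the other 3. Dimmer probe sets passed for Kif22 (both -0.29, adjusted p = 0.0158 and 0.0354), Kif11 (-0.53, adjusted p = 0.0374) and Spag5 (-0.21, adjusted p = 0.045). Kif11 and Spag5 also had a dimmer probe set that did not pass (-0.18 and -0.05).

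Of the genes for the central spindle and cytokinesis 1 of 6 fell, and their median was -0.25. For a group of this size that count lies near the share of all genes (8.57%). Kif23, the kinesin subunit of centralspindlin, read 528, 523, 581, 647 and 662 with Trp63 siRNA and 803 and 832 with control siRNA. All silenced arrays were lower, and the fall was 1.39-fold (log2 difference -0.47 with SE 0.10, limma adjusted p = 0.0157). Anln, an actin-binding scaffold of the cleavage furrow, had the largest p and read 1011, 1048, 1305, 1330.1 and 1382 with Trp63 siRNA and 1223 and 1406 with control siRNA. Silenced replicates 1 and 2 were below the controls and the other silenced arrays within their range (log2 difference -0.12 with SE 0.13, limma adjusted p = 0.578). Ect2, the exchange factor that activates RhoA at the furrow, showed a like order of arrays (-0.19, adjusted p = 0.521). Kif20a (-0.39, adjusted p = 0.0514), the microtubule bundler Prc1 (-0.30, adjusted p = 0.0614) and Racgap1 (-0.20, adjusted p = 0.152), the other centralspindlin subunit, were below both controls in every silenced array but did not pass. The dimmer Racgap1 probe set did (-0.41, adjusted p = 0.0146).

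Condensin and chromosome structure genes had the lowest median, -0.68, yet 1 of 6 fell, a count near the share of all genes (8.57%). Their median against the control mean was -1.38 and -0.77 in silenced replicates 1 and 2. In replicates 3, 4 and 7 it was -0.40, -0.27 and -0.31, less low than the anaphase genes (-0.44, -0.35 and -0.37). The gene that fell, Ncapd2, a condensin I subunit, had the smallest p of the 48 members and read 290.3, 231, 239, 263 and 258 with Trp63 siRNA and 367 and 404 with control siRNA. The silenced arrays were all far below both controls, with a fall of 1.48-fold (log2 difference -0.56 with SE 0.09, limma adjusted p = 0.00312). Another condensin I subunit, Ncaph, read 615, 555, 644, 683 and 706 with Trp63 siRNA and 571 and 625 with control siRNA. It was the only member above 0 in this fit, its groups overlapped, and its p was the largest of the group (log2 difference 0.09 with SE 0.10, limma adjusted p = 0.561). The other Ncaph probe set, also bright, was at -0.0035 (limma adjusted p = 0.983). Smc2 and Smc4 encode the ATPase core that condensin complexes share. Smc2 read 227, 553, 827, 873 and 869 with Trp63 siRNA and 879 and 1182 with control siRNA. Smc4 read 285, 799.9, 1107, 1126 and 1136 with Trp63 siRNA and 1234 and 1452 with control siRNA. In both genes all silenced arrays were below the controls and replicate 1 was far lower still, so the spread was wide (log2 difference -0.74 with SE 0.46, limma adjusted p = 0.309 for Smc2, and log2 difference -0.73 with SE 0.47, limma adjusted p = 0.325 for Smc4). Mki67, whose product Ki-67 coats mitotic chromosomes, read 312, 494, 686, 780.1 and 758 with Trp63 siRNA and 865 and 1162 with control siRNA. All silenced values were below both controls, again with replicate 1 lowest (log2 difference -0.78 with SE 0.32, limma adjusted p = 0.13). Top2a, the topoisomerase that untangles sister DNA, did not pass either (-0.62, adjusted p = 0.0728).

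**Figure D4:**
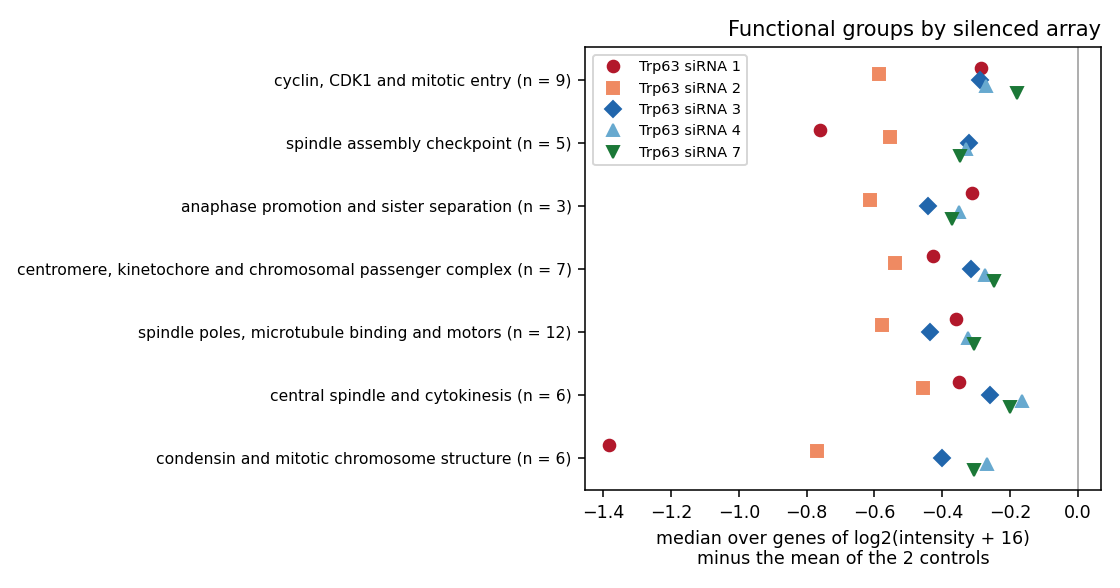
Median over the measured genes of each functional group, as log2(intensity + 16) minus the mean of the 2 controls (x axis), for each of the 5 silenced arrays. Every group median lies below 0 on each silenced array, and replicate 1 reaches -1.38 for the 6 condensin and chromosome structure genes.

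The silenced arrays were not equally low. Replicate 2 lay below both controls for all 48 members and for 53.2% of all genes, with a median over the members of -0.58 against the control mean. Replicate 1 did so for 44 members and 38.6% of all genes (members' median -0.35), and replicate 3 for 42 members and 54.6% of genes (-0.32). For replicate 4 it was 41 members and 46.1% of genes (-0.28), and for replicate 7 it was 38 members and 53.9% of genes (-0.27). The median over all genes was between -0.06 and 0.00 on each of them. Replicate 2 was the lowest silenced array for 32 members (25.3% of all genes), replicate 1 for 14 (16.3%) and replicate 3 for 2 (26.1%). The mean of replicates 1 and 2 lay below the mean of 3, 4 and 7 for 42 members (87.5%), against 39.2% of all genes. The controls differed too: replicate 6 was above replicate 5 for 45 members (93.8%), with a median of 0.23, against 41.3% of all genes. Replicates 1 and 2 and control 5 were the arrays with high melanocyte markers, so within each group the arrays with more melanocyte signal read lower for most members.

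Silenced replicate 1 stood apart from the other silenced arrays at 104 probe sets, where it was over 2-fold below each of them, while no other silenced array had any such probe set. Its gap was widest for Smc4 (285 against 799.9 for the next lowest silenced array), Smc2 (227 against 553), Mki67 (312 against 494), Bub1 (168 against 267), Nusap1 (238 against 365) and Cenpf (134 against 204). The 14 members lowest in replicate 1 included Hmmr, Ttk, Top2a, Cenpe, Kif11, Mad2l1, Ect2 and Anln as well. These members were picked by their low value in replicate 1, so a smaller spread without it follows from the choice. Without replicate 1 the difference was -0.57 for Mki67 (limma adjusted p = 0.0458), -0.50 for Bub1 (0.0474), -0.49 for Nusap1 (0.0156), -0.47 for Cenpf (0.0441), -0.40 for Smc2 (0.144) and -0.37 for Smc4 (0.0832).

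**Figure D5:**
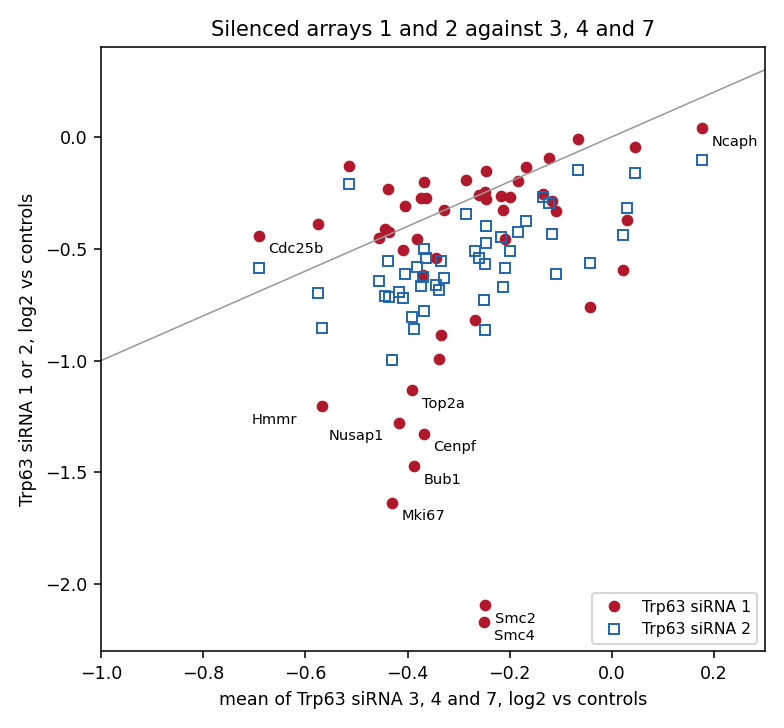
Each of the 48 members in silenced replicate 1 (filled circles) and replicate 2 (open squares), as log2 difference from the mean of the 2 controls (y axis), against the mean of replicates 3, 4 and 7 (x axis); the line marks equal values. Most squares lie below the line, and circles split into those near it and a set reaching Smc2 and Smc4.

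Other probe sets of the same genes mostly had the same sign, and the dim ones showed smaller differences. The 48 members had 91 probe sets, 26 members having several. Of the 43 not used above, 41 had a difference below 0, 21 fell and none rose, against 8.16% of all probe sets lower and 7.83% higher, with a median of -0.26. Over the 21 that were at least as bright as the median probe set, 20 were below 0 and the median was -0.38. Over the 22 dimmer ones 21 were below 0 and the median was -0.13, and dim probe sets of Bub1 (-0.05), Nusap1 (-0.02), Cenpf (-0.13), Top2a (-0.13) and Kif23 (-0.05 and -0.14) lay far from the brightest ones. Members that fell also had probe sets that did not pass. These were Hmmr (-0.20, limma adjusted p = 0.325), Cdc20 (-0.27, 0.0595), Pttg1 (-0.11, 0.106), Bub3 (-0.05 and -0.04) and the dim ones of Kif23. All of these genes but Kif23 had a further probe set that passed. Smc4 had 2 further probe sets, at -0.73 and -0.40, neither of which passed (adjusted p = 0.29 and 0.295). The brightest probe sets of Cdc20, Aurkb, Tacc3, Incenp, Kif2c, Kif22 and Ncaph are of a type (suffix x) that can bind other transcripts, so their values are less certain.

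Other mitotic genes, from 7 lists of which 109 of 150 genes were measured, fell in 18 cases (16.5%) and rose in 7, with a median of -0.15. Of all genes 8.57% were lower and 8.03% higher, so lists with 1 to 3 genes lower (11.1% to 13.6%) lie near the background. Of 19 other kinetochore and centromere genes 6 fell and none rose. They include Cenpc1, which links centromeric chromatin to the kinetochore (1.39-fold lower, -0.48, adjusted p = 0.00299), its partner subunits Cenpt (-0.50, adjusted p = 0.00364) and Cenpm (-0.31, adjusted p = 0.0136), Cenpn, Zwilch and the NDC80 complex gene Spc25. Of 16 other checkpoint and anaphase genes 2 fell and none rose, the anaphase-promoting complex subunit Cdc23 (-0.38, adjusted p = 0.00473) and the MAD2 remodeller Trip13 (-0.47, adjusted p = 0.0369). None of 10 cohesin and shugoshin genes passed, and Sgo1, the protector of centromeric cohesion, had the smallest p (-0.44, adjusted p = 0.0621). Of 22 other spindle, centrosome and motor genes 3 fell and none rose: the GTPase Ran (-0.20, adjusted p = 0.00343), its exchange factor Rcc1 (-0.39, adjusted p = 0.0144) and Dlgap5 (-0.42, adjusted p = 0.0371).

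The remaining lists had a few calls in both directions, against 8.57% of all genes lower and 8.03% higher. Of 9 other condensin and cytokinesis genes 1 fell, the condensin II subunit Ncaph2 (-0.28, adjusted p = 0.0388), and 2 rose, the abscission factor Chmp4b (0.19, adjusted p = 0.0312) and Rhoa (0.17, adjusted p = 0.032). Of 15 other mitotic kinase and phosphatase genes 4 fell, among them the cyclin Ccnf (-0.54, adjusted p = 0.0124), and 2 rose. The 2 that rose were Polo-like kinases known chiefly as stress-responsive genes: Plk3 read 699, 700.2, 597, 617 and 601 with Trp63 siRNA and 334 and 307 with control siRNA, a 1.95-fold rise without overlap (log2 difference 0.97 with SE 0.09, limma adjusted p = 0.00017). Plk2 rose 1.39-fold (log2 difference 0.47 with SE 0.05, limma adjusted p = 0.00041). Plk1 fell in the same cells, as given above. Of 18 regulators of mitotic gene transcription 2 fell and 3 rose. The NF-Y subunit Nfyb (-0.39, adjusted p = 0.0116) and the retinoblastoma gene Rb1 (-0.63, adjusted p = 0.0126) were lower. The chromatin subunit Rbbp4 (0.22, adjusted p = 0.0132), E2f5 and the MuvB subunit Lin9 were higher. The median over the 109 genes was -0.11 without control replicate 6 and -0.18 without control replicate 5. Fewer of the 109 were called lower in each of these fits, which keep 1 control. Without silenced replicate 1, 28 of the 109 were lower, against 15.3% of all genes.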

How the data were processed

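Total RNA was extracted with Trizol and labelled with biotin for Affymetrix arrays, per the labels' protocols, with an array for each sample. The deposited table holds 1 linear intensity per probe set and array. The authors' probe summary, background correction and normalization are not stated in the sources read here, and the values were used as deposited. The fit covered 22626 of 22690 probe sets, all but 64 array controls. By the platform annotation 20380 had 1 symbol, 691 several and 1555 none, and Entrez IDs tied 20351 to a current gene. Each gene took its brightest probe set with 1 symbol.

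Intensities became log2(intensity + 16), so folds of dim genes are understated. Groups were compared with limma 3.58.1 in R 4.3.3 (lmFit, eBayes with a trend), with Benjamini-Hochberg adjustment over the 22626 probe sets and a threshold of 0.05. The same script was tested on simulated data. The members and gene lists were chosen with earlier results of these data known. All measured members are described. Array values are given for members past the threshold and for the smallest and largest p of each functional group. From each other list the rule took up to 3 genes past the threshold, or the 1 with the smallest p. Array values of Bub1, Smc2, Smc4, Mki67 and Plk3, and the names Cenpn, Zwilch, Spc25, E2f5 and Lin9, were chosen after their values were seen. Promoters are from RefSeq. Alternatives covered normalization, pseudocounts 1 and 64, filters at percentiles 25 and 50, eBayes settings, array weights, the mean of probe sets, the melanocyte and spike levels as blocks, and leaving out each array. Without a control, the lone control is assumed to vary like the silenced arrays. Plots used matplotlib 3.10.9 (Python 3.11.15).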

Additional observations from a re-analysis of the deposited data

Results flagged for a closer look

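In 6 of the 48 members 1 silenced array lay far below the other 4. Silenced replicate 2 was the low array for Cenpa (628), Birc5 (873), Incenp (437), Aurka (395) and Kif20a (280.2). Silenced replicate 1 was the low array for Smc4 (285). The gap to the nearest silenced array was 0.892 of the range for Cenpa, 0.914 for Birc5, 0.718 for Incenp, 0.861 for Aurka, 0.801 for Kif20a and 0.743 for Smc4, above Dixon's critical value for 5 samples. Chance flags about 1 in 20 groups. Over all genes a low array was found in 5.99%, in 3.89% for replicate 1 and in 1.38% for replicate 2. No member had a high silenced array, against 3.74% of all genes.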

How the results depend on the processing

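The 17 members lower became 40 with the melanocyte level as a block, 3 with the spike level as a block and 0 to 29 when 1 array was left out. The 18 other mitotic genes lower became 40 with the melanocyte block and 6 with the spike block, against 13.6% and 3.57% of all genes. They became 14 to 28 when 1 silenced array was left out. Fewer passed when either control was left out, which keeps 1 control. The median of these genes was then -0.18 (without control replicate 5) or -0.11 (without control replicate 6). The 28 came without silenced replicate 1, where 15.3% of all genes were lower. The cause was not tested. The other settings gave 17 to 22 members lower, and no member was higher under any setting. The median of the members lay between -0.49 and -0.32 with 1 array left out, and 38 to 47 members had no overlap, against 24.8% to 39.3% of all genes. The 47 came without control replicate 5, where 32.2% of all genes had none. Leaving out an array cannot lower this count, so its lower end of 38 was fixed beforehand. With median centring of all arrays 36 members had no overlap, beside 2617 of 12393 genes. Cks1b, which did not pass, changed sign: its log2 difference was 0.0033 with median centring, 0.023 with array weights, 0.0064 with the spike block, 0.0303 within the arrays with a high melanocyte level, and between -0.15 (without control replicate 5) and 0.12 (without control replicate 6) when 1 array was left out. No paired analysis was possible because no replicate number occurs in both groups. Leaving out either control lost calls: without control replicate 6 none of the 17 passed, and without control replicate 5, 9 of them did. Cdc25c, Foxm1, Cenpe, Spag5 and Nek2 were dimmer than the median probe set, where signal over background limits the fold.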

Other observations

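Silenced replicate 1 was the lowest silenced array for 9 of 10 measured cohesin and shugoshin genes, against 16.3% of all genes, and replicate 2 for Cdca5. Smc3, a core cohesin subunit, read 293, 551, 760.2, 756 and 787 with Trp63 siRNA and 709 and 819 with control siRNA. Stag2, another subunit, read 311, 913, 1075, 1079 and 1070.3 with Trp63 siRNA and 926 and 966 with control siRNA. Esco1, an acetyltransferase of cohesin, read 183, 455, 673, 652 and 650.3 with Trp63 siRNA and 534 and 588 with control siRNA. In all 3 genes silenced replicate 1 was far below every other array, and none passed the test (limma adjusted p = 0.511, 0.77 and 0.753). Over the 10 measured cohesin and shugoshin genes the median difference from the control mean was -0.77 in silenced replicate 1, -0.29 in replicate 2 and between -0.03 and 0.00 in replicates 3, 4 and 7. These 3 genes were chosen after their values were seen.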
